A study of Arabidopsis thaliana with 17 samples.

Results

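AUR1, AUR2 and MCM7 are 3 of the 13350 Arabidopsis thaliana genes that a probe set of the array names alone. They were chosen by name as markers of cell division, with earlier results of these data known. AUR1 (AT4G32830) and AUR2 (AT2G25880) encode Aurora kinases, and MCM7 (AT4G02060, listed in the annotation as PRL, for PROLIFERA) encodes a subunit of the replicative helicase. Each gene is measured by 1 probe set, and no probe set that names several genes includes a member.

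Seeds of the Ws-0 accession carried embryos at the globular stage. From sections, 7 compartments and whole seeds were captured with a laser and profiled. The groups were whole seed, embryo proper, suspensor, chalazal endosperm, micropylar endosperm, peripheral endosperm, chalazal seed coat and general seed coat, with 3 arrays for chalazal endosperm and 2 for every other group. All groups shared 1 genotype, growth in continuous light, plants of 38 to 46 days, siliques of 1.1 to 1.4 cm, embryos of 24 to 32 µm, and amplification of 2 to 4 ng of RNA before hybridisation to the ATH1 array. The labels give no treatment, and the study asked how the compartments of a seed differ from each other. The number of arrays limits the precision of every value.

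Aurora kinases act in mitosis and cytokinesis. In plants, AUR1 and AUR2 belong to the alpha group of the family, which is found on the spindle and the forming cell plate, whereas AUR3 belongs to the beta group and is found at centromeres. MCM7 and the other MCM subunits form the ring that is loaded on DNA in G1 and unwinds it in S phase, so MCM7 is needed in cells that replicate DNA, with or without a mitosis. At the globular stage the embryo proper divides, the suspensor has nearly ceased to divide, and the endosperm of Arabidopsis passes through nuclear divisions without cell walls, with enlarged nuclei at its chalazal pole. Cells of the seed coat enlarge and differentiate at this time.

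Values are array intensities on a linear scale. An array's background limit was its highest value among 27 bacterial control probe sets, from 49.2 to 144 between arrays, and a value that did not pass it is given as not above the limit. MCM7 was above the limit on 17 of 17 arrays, AUR1 on 13 and AUR2 on 10. Levels of different probe sets cannot be set against each other, since probes differ in how they bind.

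The AUR1 intensity was 328 and 117 in whole seed, 1419.7 and 2672 in embryo proper, 153 and 267 in suspensor, and 299, 293 and 272 in chalazal endosperm. It was 111 and 135 in micropylar endosperm, 1027 and 1719 in peripheral endosperm, 31.5 and 152 in chalazal seed coat, and 90.0 and 178 in general seed coat. The embryo proper and the peripheral endosperm were high on both of their arrays, above all 13 arrays of the other groups, and they overlapped each other. Neither micropylar array was above its limit, and in each of the seed coat groups 1 of 2 arrays was above.

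AUR2 had an intensity of 135 and 90.0 in whole seed, 2343 and 2644 in embryo proper, 74.5 and 199 in suspensor, and 239.7, 434 and 736 in chalazal endosperm. In micropylar endosperm it was 58.5 and 46.9, in peripheral endosperm 845 and 549.6, in chalazal seed coat 49.9 and 18.7, and in general seed coat 159 and 12.8. The embryo proper stood above every other array, and the chalazal and peripheral endosperm overlapped each other and lay above all arrays of the remaining groups. No micropylar or chalazal seed coat array passed its limit, and 1 of 2 arrays did so in whole seed, suspensor and general seed coat.

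MCM7 was measured at 1119 and 1466 in whole seed, 3687 and 2619 in embryo proper, 1289 and 1649 in suspensor, and 685, 275 and 527 in chalazal endosperm. Its intensity was 199.6 and 1003 in micropylar endosperm, 1735 and 1133 in peripheral endosperm, 1624 and 2081 in chalazal seed coat, and 1634 and 1067 in general seed coat. The embryo proper was again above every other array. All arrays of the seed coat groups, the suspensor, the peripheral endosperm and the whole seed lay between 1067 and 2081, the chalazal endosperm lay below all of them, and the 2 micropylar arrays differed by more than those of any other group on the log scale.

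**Figure D1:**
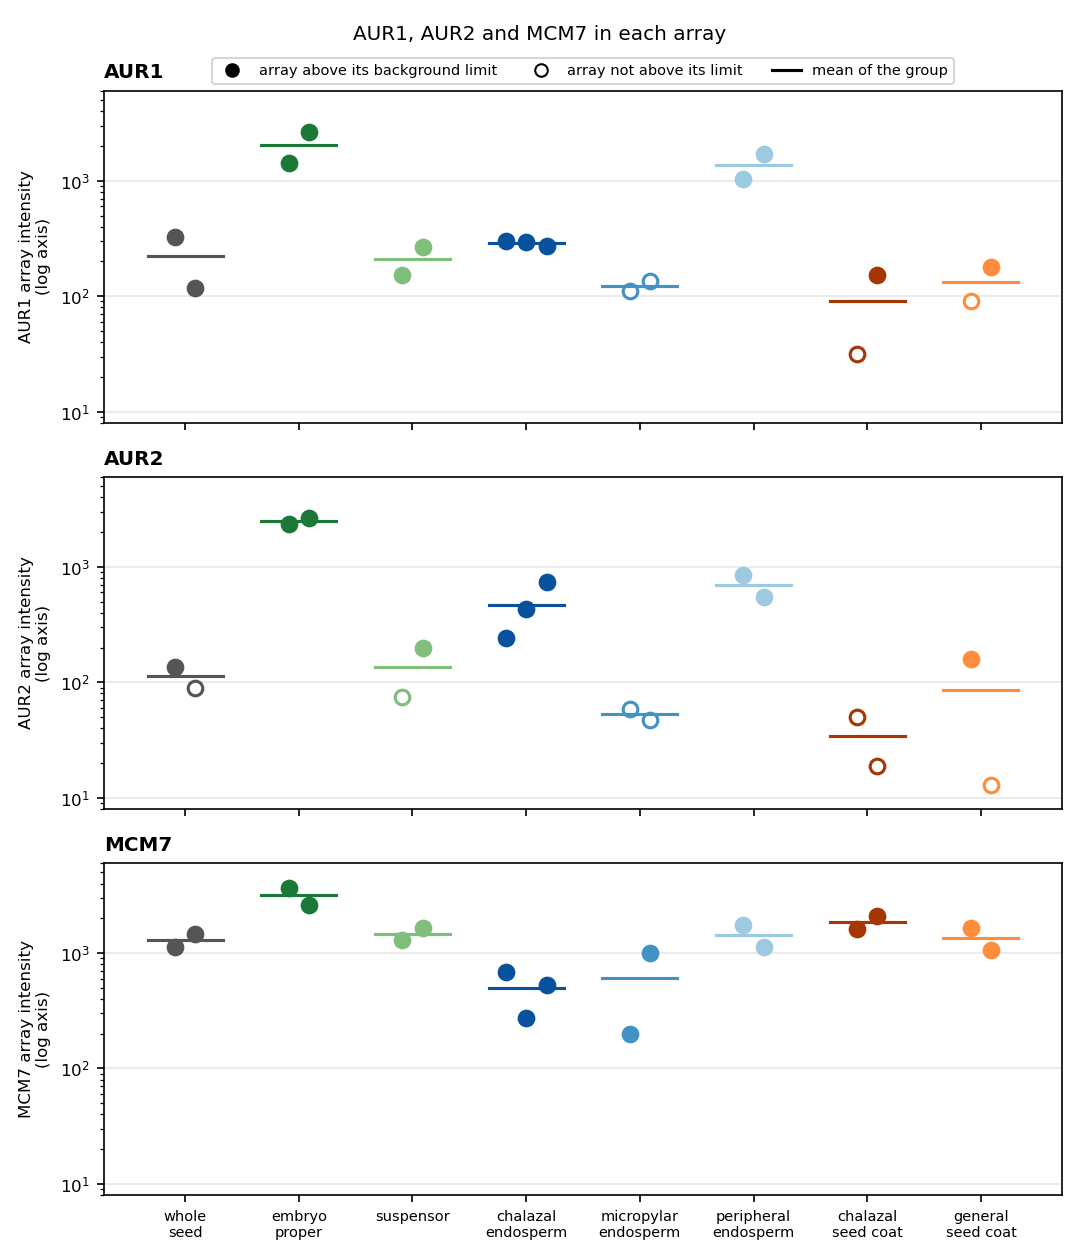
Intensity (log axis) of AUR1, AUR2 and MCM7 on each of the 17 arrays, by group, with open points for arrays not above their background limit and bars for group means. AUR1 and AUR2 are high in embryo proper and peripheral endosperm, and MCM7 spans 199.6 to 3687 with every array above its limit.

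By mean log2 level, both AUR1 and AUR2 ran from high to low as embryo proper, peripheral endosperm, chalazal endosperm, suspensor, whole seed, general seed coat, micropylar endosperm and chalazal seed coat. MCM7 ran as embryo proper, chalazal seed coat, suspensor, peripheral endosperm, general seed coat, whole seed, chalazal endosperm and micropylar endosperm. Few steps between neighbours in these orders passed the test: peripheral and chalazal endosperm for AUR1, whole seed and chalazal endosperm for MCM7, and none for AUR2. Among the AUR2 steps that did not pass, the groups did not overlap between embryo proper and peripheral endosperm, or between suspensor and chalazal endosperm. The same held for AUR1 between suspensor and chalazal endosperm (adjusted p = 0.613) and for MCM7 between embryo proper and chalazal seed coat (adjusted p = 0.394). How many of all probe sets separate in these pairs was not counted. Here a difference passes, or is called, where limma's p-value, adjusted by the Benjamini-Hochberg method over 22746 probe sets, is under 0.05. Differences are on the scale of log2(intensity + 31), which understates the change of dim genes.

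Within the embryo, both Aurora kinases were far higher in the embryo proper than in the suspensor, the file of cells that anchors it. Over the 2 arrays of each group, AUR1 averaged 2046 ± 886 (SD) in embryo proper and 210.3 ± 80.8 in suspensor, a measured 9.62-fold difference of 3.08 ± 0.61 (log2, SE) with an adjusted p of 0.000838. AUR2 averaged 2493 ± 213 in embryo proper and 137 ± 88.2 in suspensor, a difference of 4.02 ± 0.68 (adjusted p = 0.000136), and it was at least 19.2-fold higher, since 1 of 2 suspensor arrays was not above its limit. MCM7 averaged 3153 ± 755 in embryo proper and 1469 ± 255 in suspensor. Its difference of 1.08 ± 0.54 did not pass (adjusted p = 0.227, 95% interval -0.03 to 2.18). The MCM7 groups did not overlap, and how many of all probe sets share this was not counted. Of all probe sets, 13.1% passed in this comparison.

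Intensities are relative within an array, so fewer dividing cells and less of a transcript in each cell cannot be told apart here or below. The labels of these arrays were checked against marker genes. The summed intensity of 4 embryo markers ran from 3349.8 to 4912 in embryo proper and from 1082 to 1903 in suspensor, with 3 of 4 above the limit on every array of both groups. They also summed to 1365 to 2934 in general seed coat, where CR4 held 1160 and 2591 of it and 2 of 4 were above. Endosperm markers summed to 339 to 343 in embryo proper, with 0 to 1 of 6 above, and to 611 to 676 in suspensor, with 3 to 4 of 6 above. Seed coat markers summed to 108 to 134 in embryo proper, with 0 of 3 above the limit, and to 870.5 to 890.5 in suspensor, with 2 to 3 of 3 above. The annotation named neither suspensor marker by a probe set of its own, so they could not be checked. The ratio of 3' to 5' GAPDH signal, a measure of RNA quality, was 12.4 ± 5.74 in embryo proper and 6.27 ± 1.17 in suspensor, and its part in the result was not tested.

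In the endosperm, the micropylar domain, which surrounds the embryo, had much less AUR1 and AUR2 than the peripheral domain that lines the wall of the central cell. AUR1 averaged 123 ± 16.7 in micropylar and 1373 ± 489 in peripheral endosperm, a difference of -3.15 ± 0.61 (adjusted p = 0.000704), and it was at least 9.28-fold lower. AUR2 averaged 52.7 ± 8.22 in micropylar and 697 ± 209 in peripheral endosperm, a difference of -3.09 ± 0.68 (adjusted p = 0.00221), at least 4.76-fold lower. No micropylar array was above its limit for either gene. Limits differ between arrays: AUR1 at 135 was not above on micropylar replicate 2, while 117 was above on whole seed replicate 2. Within their arrays, AUR1 lay at percentiles 45.9 and 54.6 in micropylar endosperm, 23.4 and 50.0 in chalazal seed coat, and 36.3 and 53.0 in general seed coat. MCM7 averaged 601 ± 568 in micropylar and 1434 ± 426 in peripheral endosperm, a difference of -1.55 ± 0.54 that missed the threshold (adjusted p = 0.0559, 95% interval -2.66 to -0.44).

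The MCM7 value rested on the micropylar arrays: without micropylar replicate 1, the array at 199.6, the difference was -0.47 (adjusted p = 0.719), and without replicate 2, the array at 1003, it was -2.64 (adjusted p = 0.00241). Among all probe sets, 13.4% passed between micropylar and peripheral endosperm. Endosperm markers summed to 2309.8 to 2506 in micropylar and 12310.5 to 14879.7 in peripheral endosperm, with 4 to 5 and 5 to 6 of 6 above the limit. One of them, IKU2, went against the sum, at 978 and 721 in micropylar and 76.9 and 1.63 in peripheral endosperm. Seed coat markers summed to 1607 to 2518 in micropylar and 1287 to 1574 in peripheral endosperm. Their part in the result was not tested.

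The chalazal endosperm, at the pole that faces the maternal vasculature, had less AUR1 and MCM7 than the peripheral domain, and the AUR2 difference did not pass. AUR1 averaged 288 ± 14.5 in chalazal (n = 3) and 1373 ± 489 in peripheral endosperm (n = 2), a measured 4.62-fold lower level and a difference of -2.09 ± 0.56 (adjusted p = 0.00544). AUR2 averaged 469.6 ± 249.9 in chalazal and 697 ± 209 in peripheral endosperm, and its difference of -0.64 ± 0.62 did not pass (adjusted p = 0.515, 95% interval -1.90 to 0.63). MCM7 averaged 496 ± 207 in chalazal and 1434 ± 426 in peripheral endosperm, 3.03-fold lower, with a difference of -1.53 ± 0.49 (adjusted p = 0.0216). In this comparison 25.5% of all probe sets passed. The AUR1 call was lost without peripheral replicate 2 (-1.73, adjusted p = 0.102), and the MCM7 call without peripheral replicate 1 (-1.23, adjusted p = 0.196) or chalazal replicate 2 (-1.18, adjusted p = 0.0979). Whether the AUR1 and AUR2 differences differ from each other was not tested.

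Between the poles of the endosperm, AUR2 was the member that passed. It averaged 469.6 ± 249.9 in chalazal and 52.7 ± 8.22 in micropylar endosperm, a difference of 2.46 ± 0.62 (adjusted p = 0.00415) and at least 2.96-fold higher in chalazal endosperm. AUR1 averaged 288 ± 14.5 in chalazal and 123 ± 16.7 in micropylar endosperm, and its difference of 1.05 ± 0.56 did not pass (adjusted p = 0.206, 95% interval -0.1 to 2.2). For MCM7 the difference was 0.02 ± 0.49 (adjusted p = 0.982, 95% interval -0.99 to 1.04), with overlapping groups, and its sign depended on the arrays used. Between these poles, 20.4% of all probe sets passed. GAPDH 3' to 5' ratios were 18.2 ± 8.68 in chalazal, 16.8 ± 8.34 in micropylar and 9.77 ± 4.81 in peripheral endosperm.

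No member passed within the seed coat, where 6.98% of all probe sets passed. MCM7 averaged 1852 ± 323 in chalazal and 1350.4 ± 401 in general seed coat, a difference of 0.47 ± 0.54 (adjusted p = 0.771, 95% interval -0.64 to 1.58). The AUR1 difference was -0.57 ± 0.61 (adjusted p = 0.749), with means of 91.6 ± 85.1 in chalazal and 134 ± 62.0 in general seed coat. AUR2 averaged 34.3 ± 22.1 in chalazal and 85.9 ± 103 in general seed coat, a difference of -0.53 ± 0.68 (adjusted p = 0.802). With 1 general seed coat array as the only AUR2 value above the limit, no fold is given for that gene.

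The embryo proper and the peripheral endosperm, the groups with most AUR1 and AUR2, were compared directly, and 14.4% of all probe sets passed. No member did. AUR1 differed by 0.54 ± 0.61 between embryo proper and peripheral endosperm (adjusted p = 0.688, 95% interval -0.72 to 1.80), and its groups overlapped. AUR2 had a difference of 1.82 ± 0.68 (adjusted p = 0.0738, 95% interval 0.43 to 3.21) and MCM7 of 1.13 ± 0.54 (adjusted p = 0.192, 95% interval 0.02 to 2.24). In both, the embryo proper arrays lay above the peripheral ones, and how many of all probe sets separate in this way was not counted.

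**Figure D2:**
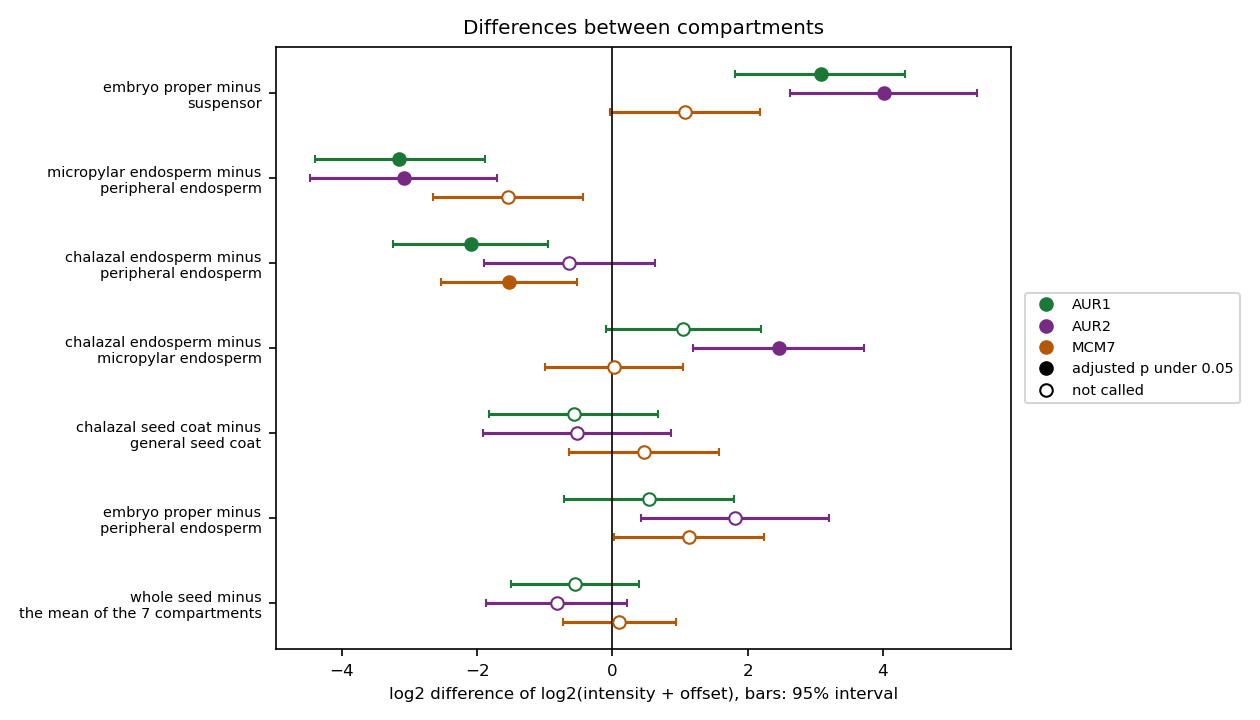
Difference of each member in 7 comparisons, on the log2 scale, first-named group minus second, with 95% intervals, and filled points for an adjusted p under 0.05. AUR1 and AUR2 pass in embryo proper minus suspensor (3.08 and 4.02) and in micropylar minus peripheral endosperm (-3.15 and -3.09), where MCM7 does not.

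Over all 28 pairs of groups, 15 passed for AUR2, 13 for AUR1 and 8 for MCM7, against 19.2% of the values of all probe sets. For AUR1 and AUR2 every called pair had the embryo proper, the peripheral endosperm or the chalazal endosperm on its higher side. For MCM7 every called pair had chalazal or micropylar endosperm on its lower side. Called pairs share arrays and are not independent of each other. The MCM7 count depended on the setting. It was below 8 with quantile scaling or without the intensity trend in the variance, and it moved both ways when single arrays were left out.

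The embryo proper exceeded chalazal endosperm in all 3 members, by 2.64 ± 0.56 for AUR1 (adjusted p = 0.000445), 2.46 ± 0.62 for AUR2 (adjusted p = 0.00242) and 2.66 ± 0.49 for MCM7 (adjusted p = 9.2e-05), where 32.8% of all probe sets passed. Over micropylar endosperm it was higher by 3.69 ± 0.61 for AUR1 (adjusted p = 5.12e-05), 4.91 ± 0.68 for AUR2 (adjusted p = 4.14e-06) and 2.68 ± 0.54 for MCM7 (adjusted p = 0.00049), with 22.6% of probe sets called. Against micropylar endosperm, where neither array was above the limit for the kinases, AUR1 was at least 13.6-fold and AUR2 at least 17.4-fold higher. The measured fold for MCM7 was 6.71 over chalazal and 6.94 over micropylar endosperm. The micropylar value for MCM7 ran between 1.60 and 3.77 when arrays were left out.

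Against the seed coat, both kinases passed and MCM7 did not, and whether the kinases differ from MCM7 in this was not tested. AUR1 was higher in embryo proper than in chalazal seed coat by 4.21 ± 0.61 (adjusted p = 8.77e-06, at least 19.2-fold) and AUR2 by 5.31 ± 0.68 (adjusted p = 1.32e-06, at least 30.8-fold), whereas the MCM7 difference was 0.75 ± 0.54 (adjusted p = 0.394, 95% interval -0.36 to 1.86). Of all probe sets, 8.67% were called higher in embryo proper than in chalazal seed coat. Between embryo proper and general seed coat, with 7.72% called higher in embryo proper, the differences were 3.64 ± 0.61 for AUR1 (adjusted p = 6.87e-05, at least 14.01-fold), 4.79 ± 0.68 for AUR2 (adjusted p = 7.17e-06, at least 25.4-fold) and 1.21 ± 0.54 for MCM7 (adjusted p = 0.13).

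Peripheral endosperm was also set against the seed coat. Its AUR1 level was higher than that of chalazal seed coat by 3.67 ± 0.61 (adjusted p = 4.32e-05, at least 13.1-fold) and its AUR2 level by 3.49 ± 0.68 (adjusted p = 0.000272, at least 8.42-fold), with an MCM7 difference of -0.38 ± 0.54 (adjusted p = 0.713) and 22.9% of probe sets called. Against general seed coat the values were 3.1 ± 0.61 for AUR1 (adjusted p = 0.000384, at least 9.56-fold), 2.97 ± 0.68 for AUR2 (adjusted p = 0.00166, at least 6.96-fold) and 0.08 ± 0.54 for MCM7 (adjusted p = 0.956), with 21.1% called. The AUR2 call there was lost without general seed coat replicate 2 (adjusted p = 0.101), the array at 12.8.

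Chalazal endosperm and chalazal seed coat lie beside each other, and AUR2 and MCM7 differed between them in opposite directions. In chalazal endosperm AUR2 was higher by 2.86 ± 0.62 (adjusted p = 0.000652, at least 5.25-fold) and MCM7 lower by 3.97-fold (-1.91 ± 0.49, adjusted p = 0.00358), where 28.8% of all probe sets passed. AUR1 was higher by 1.58 ± 0.56 (adjusted p = 0.0337, at least 2.83-fold), a call that ended without any of the chalazal endosperm arrays, without seed coat replicate 1 or with an offset 4 times as large (adjusted p = 0.0599). The MCM7 call ended without chalazal seed coat replicate 2 (adjusted p = 0.0597). Against general seed coat, with 30.9% called, chalazal endosperm differed by 2.33 ± 0.62 in AUR2 (adjusted p = 0.00425, at least 4.34-fold) and by -1.45 ± 0.49 in MCM7 (adjusted p = 0.0254), while the AUR1 difference of 1.00 ± 0.56 did not pass (adjusted p = 0.188). The AUR2 call ended without general seed coat replicate 2, and the MCM7 call without chalazal endosperm replicate 2 or either general seed coat array, with quantile or 75th percentile scaling, or without the intensity trend in the variance.

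MCM7 was lower in micropylar endosperm than in chalazal seed coat by 4.11-fold (-1.94 ± 0.54, adjusted p = 0.00933), with 21.7% of probe sets called, and the call was lost without micropylar replicate 1 or chalazal seed coat replicate 2. The suspensor had less AUR1 (-2.54 ± 0.61, adjusted p = 0.00383, 6.57-fold) and AUR2 (-2.19 ± 0.68, adjusted p = 0.0248, at least 5.25-fold) than peripheral endosperm, where 15.4% passed, while MCM7 differed by 0.06 ± 0.54 (adjusted p = 0.979). Both calls were lost without suspensor replicate 1 or peripheral replicate 2, and that of AUR2 also without peripheral replicate 1 or with no offset (adjusted p = 0.115). Against chalazal endosperm, with 28.1% called, the suspensor was 3.15-fold higher in MCM7 (1.58 ± 0.49, adjusted p = 0.0158), a call that ended without either suspensor array, without chalazal endosperm replicate 2 or with 75th percentile scaling (adjusted p = 0.0644). AUR1 (-0.44 ± 0.56) and AUR2 (-1.56 ± 0.62, adjusted p = 0.0605) did not pass there.

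**Figure D3:**
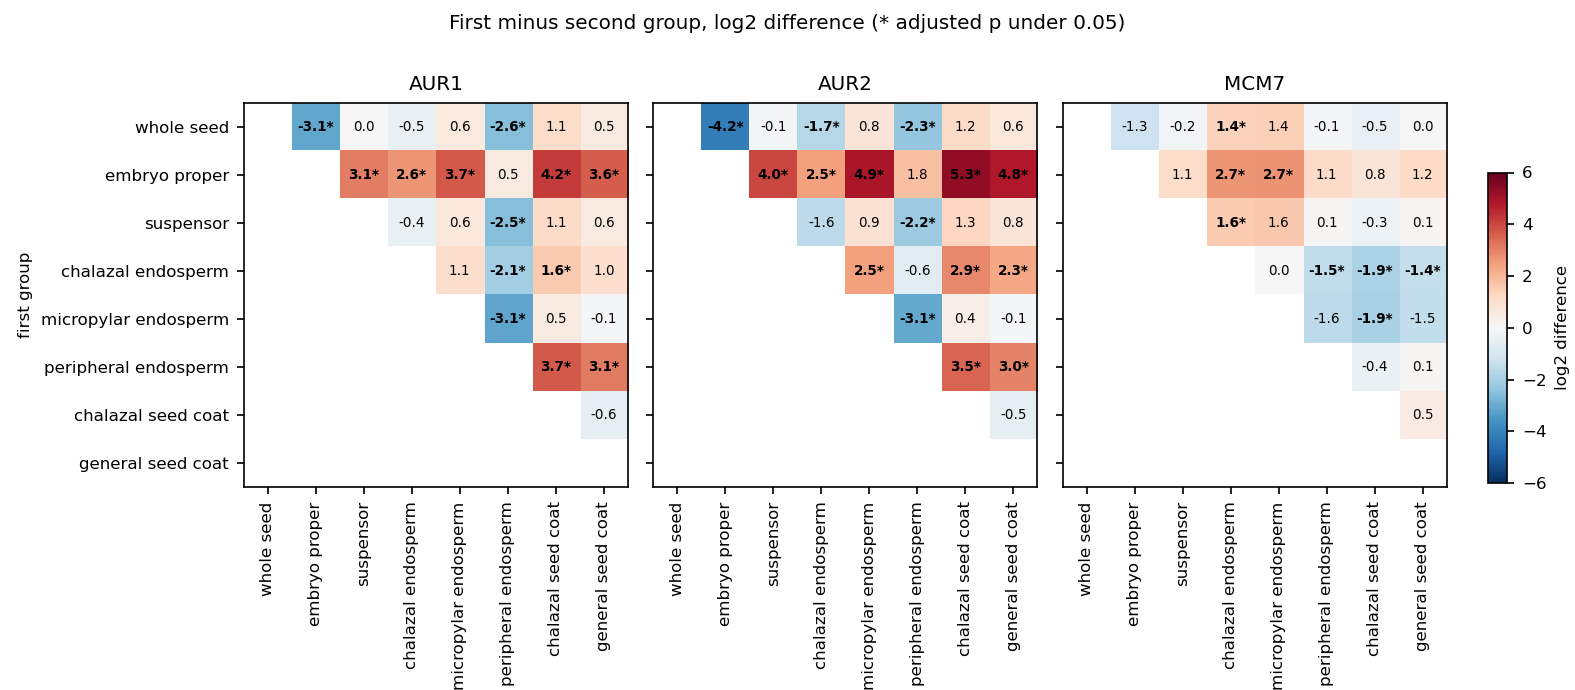
Log2 difference of each member in the 28 pairs of groups, row group minus column group, with marked cells for an adjusted p under 0.05. The marked cells number 13 for AUR1, 15 for AUR2 and 8 for MCM7, and those of MCM7 involve chalazal or micropylar endosperm.

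Whole seed holds all of the compartments, and no member passed between whole seed and the mean of the 7 compartments, a comparison in which 13.0% of probe sets passed. Here and below, that mean gave each compartment equal weight on the log2 scale, whatever its share of a seed. It is therefore not the mixture that a whole seed holds. The differences were -0.56 ± 0.46 for AUR1 (adjusted p = 0.528), -0.82 ± 0.51 for AUR2 (adjusted p = 0.363) and 0.10 ± 0.41 for MCM7 (adjusted p = 0.922). Whole seed was lower than embryo proper, with differences of -3.1 ± 0.61 in AUR1 (adjusted p = 0.00047) and -4.15 ± 0.68 in AUR2 (adjusted p = 4.65e-05, at least 22.2-fold) and 19.5% of probe sets called. It was also lower than peripheral endosperm, with differences of -2.56 ± 0.61 in AUR1 (adjusted p = 0.00289) and -2.33 ± 0.68 in AUR2 (adjusted p = 0.0131, at least 6.07-fold) and 20.5% called. Against chalazal endosperm, with 31.6% called, it was lower in AUR2 (-1.69 ± 0.62, adjusted p = 0.0361, at least 3.78-fold) and higher in MCM7 (1.40 ± 0.49, adjusted p = 0.0297). Without whole seed replicate 2 all of these calls but those against embryo proper were lost. The call of AUR1 against peripheral endosperm also ended without peripheral replicate 2, that of AUR2 without peripheral replicate 1, and both calls against chalazal endosperm without whole seed replicate 1 or chalazal replicate 2, as did that of AUR2 without chalazal replicate 3. With no offset both AUR2 calls other than that against embryo proper were lost. Against chalazal endosperm the AUR2 call was also lost with the replicate number as a block and with adjustment over all 28 pairs, and the MCM7 call with quantile or 75th percentile scaling or without the trend. Seed coat markers summed to 14339 to 14934 in whole seed, and its GAPDH ratio was 2.99 ± 0.145.

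The profiles of the kinases over the 8 group means resembled each other closely, with a Pearson r of 0.959, and of 0.844 over the 17 arrays. With MCM7 the r over group means was 0.427 for AUR1 and 0.352 for AUR2. These are descriptions: the points share arrays, and many genes that differ between compartments correlate.

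The annotation names 14 of 110 other listed cell cycle genes by a probe set of their own. They are the kinases AUR3 and Haspin, the chromosomal passenger protein WYR, AT4G39630, ICU2 and TOPII of DNA synthesis, the inhibitor SIM, HBT and CDC27a of the anaphase promoting complex, BUB3.1, BUBR1 and HTR12 of the checkpoint and kinetochore, the condensin subunit ATSMC2, and KEU of cytokinesis. The annotation names no other listed replication licensing gene, cyclin or cyclin-dependent kinase by a probe set of its own. It leaves 8730 of the 22746 probe sets unnamed, and whether any of these measure such genes was not checked.

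In embryo proper against suspensor, 3 of the 14 rose, none fell and 11 did not pass, where 13.1% of all probe sets passed, 5.66% as higher in embryo proper, with a median difference of 1.02 beside 0.02 over all probe sets. TOPII, topoisomerase II, which untangles replicated DNA, had intensities of 12552 and 11344 in embryo proper and 1664 and 1296 in suspensor (8.13-fold, 3.00 ± 0.52, adjusted p = 0.000175). BUBR1, a spindle checkpoint protein, was at 1249 and 1819.5 in embryo proper and at 142 and 134 in suspensor (10.9-fold, 3.19 ± 0.75, adjusted p = 0.00419). HTR12, the centromeric histone H3, was at 1828 and 2772 in embryo proper and at 7.65 and 291 in suspensor, at least 14.4-fold higher (4.36 ± 0.71, adjusted p = 9.36e-05). For each of these genes the groups did not overlap, and how many of all probe sets share this was not counted. The BUBR1 call ended without embryo proper replicate 2 or with no offset under the log2, and the HTR12 difference ran from 2.83 without suspensor replicate 1 to 5.88 without suspensor replicate 2.

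Between micropylar and peripheral endosperm 1 of the 14 rose, 1 fell and 12 did not pass, 2 of 14 beside 13.4% of all probe sets, with a median difference of -1.11 beside 0.08. TOPII fell, with 325 and 312 in micropylar and 3948 and 5159 in peripheral endosperm (14.2-fold lower, -3.70 ± 0.52, adjusted p = 1.22e-05). KEU, which acts in the vesicle fusion that builds the cell plate, rose, with 5187 and 4414 in micropylar and 1126 and 1879 in peripheral endosperm (3.29-fold, 1.70 ± 0.38, adjusted p = 0.00285). Its call ended without peripheral replicate 1 (adjusted p = 0.0596). The same genes were the called ones between chalazal and peripheral endosperm, where TOPII differed by -3.46 (adjusted p = 1.88e-06) and KEU by 1.93 (adjusted p = 9.12e-05), and the median was -0.53 beside 0.10. There 25.5% of all probe sets passed.

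**Figure D4:**
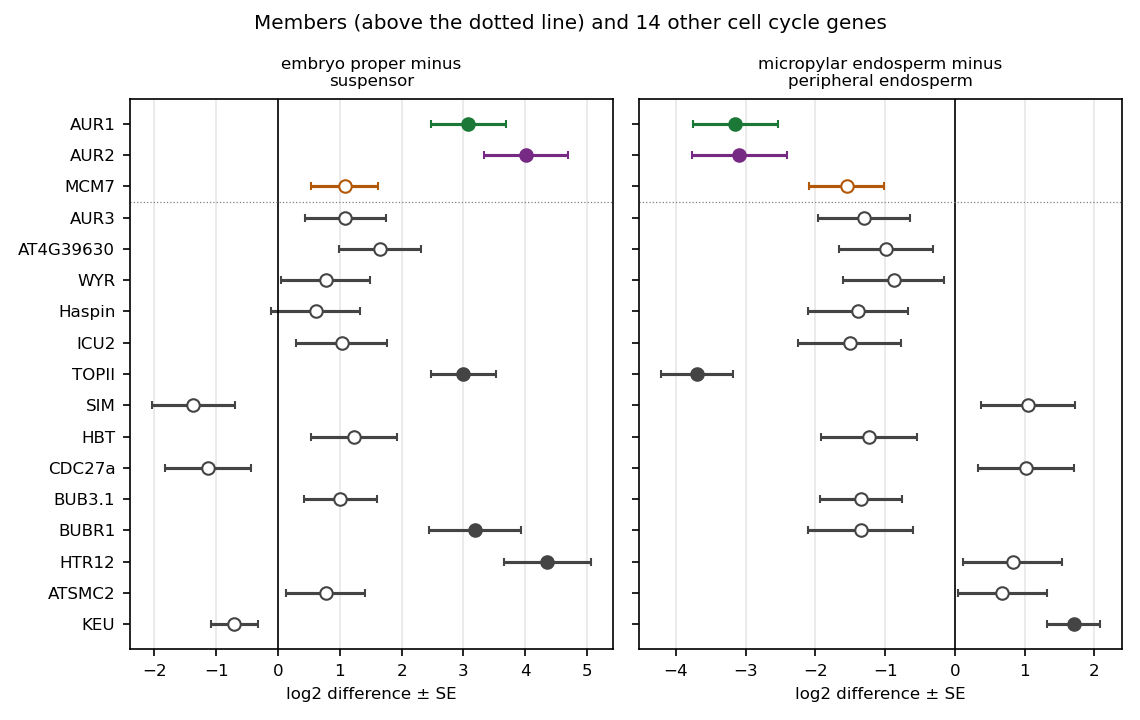
Log2 difference with its SE for AUR1, AUR2, MCM7 and the 14 other measured cell cycle genes, in embryo proper minus suspensor (left) and micropylar minus peripheral endosperm (right), with filled points for an adjusted p under 0.05. TOPII, BUBR1 and HTR12 lie right of 0 and filled on the left, and TOPII at -3.70 and KEU at 1.70 are the filled points of the list on the right.

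No listed gene passed between chalazal and micropylar endosperm, where limma gave 1 at an unadjusted p under 0.05, or between chalazal and general seed coat, where it gave 2. The medians were 0.22 beside -0.04 and -0.06 beside -0.05 over all probe sets. Between embryo proper and peripheral endosperm 2 of 14 rose, beside 14.4% of all probe sets, with a median of 0.82 beside 0.06. HTR12 rose by 2.35 (5.42-fold, adjusted p = 0.0226), a call that ended with no offset or without either embryo proper array. ATSMC2 was at 7.36 and 2.10 in peripheral endosperm, neither above the limit, so it was at least 2.94-fold higher in embryo proper (2.58, adjusted p = 0.00529), and its difference ran from 1.25 with an offset 4 times as large to 5.53 with no offset. Its call ended without embryo proper replicate 2 (adjusted p = 0.0524). No gene was called there without peripheral replicate 2, and 1 was called without embryo proper replicate 1 (ATSMC2) or without replicate 2 (neither of these genes).

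A few listed genes outside the naming rule are described after their values were seen. AUR3, the third Aurora kinase, had intensities of 417 and 507 in embryo proper, 226 and 177 in suspensor, 392, 765 and 497 in chalazal endosperm, 158 and 384 in micropylar endosperm, and 432 and 1006 in peripheral endosperm. It was at 49.5 and 128 in whole seed, 52.3 and 63.9 in chalazal seed coat, and 83.1 and 2.06 in general seed coat, where no seed coat array was above its limit. AUR3 was above the limit on all 7 endosperm arrays, the micropylar ones included. AUR1 and AUR2 were not above on either micropylar array, but this contrast is between different probe sets and does not rank the genes. Its difference between embryo proper and suspensor was 1.09 (adjusted p = 0.346).

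SIM, a plant inhibitor of cyclin-dependent kinases known in trichomes for promoting DNA replication without mitosis, had intensities of 1314 to 2141 on the 4 seed coat arrays and 1005 to 1449.8 in whole seed. It was at 12.5 and 3.19 in embryo proper, 10.3 and 125 in micropylar endosperm and 3.55 and 12.5 in peripheral endosperm, with none of these arrays above the limit. In suspensor it was at 63.6 and 74.1, and in chalazal endosperm at 149, 22.2 and 87.3, with 1 array above the limit in each of these groups. In whole seed against the mean of the 7 compartments, SIM rose by 2.87 (adjusted p = 0.000191, at least 5.29-fold), while BUB3.1 fell by 2.00 on the log2 scale (adjusted p = 0.00241) and KEU fell by 1.14 (adjusted p = 0.00661), and the other 11 did not pass, 3 of 14 beside 13.0% of all probe sets. The call of BUB3.1 was lost without whole seed replicate 1, and that of KEU without either whole seed array.

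The genes with the profile most like that of each member were ranked by Pearson r over the 8 group means, among 6140 genes with a probe set of their own and a highest group mean above the median. For AUR1 these were AT1G10780 (0.966), AT4G14330 (0.960), AUR2 (0.959), AT5G14050 (0.955) and AT3G12870 (0.954). For AUR2 they were AT1G76010 (0.989), AT5G07810 (0.974), AT4G37170 (0.963), AUR1 (0.959) and AT1G05440 (0.959). For MCM7 they were AT3G57000 (0.978), AT1G73240 (0.974), AT2G36350 (0.972), AT4G02820 (0.967) and AT5G53070 (0.966). The lists of AUR1 and AUR2 share no gene other than the kinases themselves.

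Over the 17 single arrays the r of these genes was lower, from 0.717 to 0.886 for AUR1, 0.663 to 0.891 for AUR2 and 0.536 to 0.948 for MCM7. By that r, AT5G14050 ranked 103 for AUR1, AT1G76010 ranked 140 for AUR2 and AT1G73240 ranked 904 for MCM7. The other named genes ranked from 1 to 22. AT4G14330, for example, averaged 2235 ± 349 in embryo proper, 196 ± 12.9 in suspensor and 699 ± 62.1 in peripheral endosperm. AT3G57000 averaged 2832 ± 3.46 in embryo proper, 808 ± 51.1 in suspensor and 954 ± 390.2 in peripheral endosperm. Over the group means, the r of the 14 listed cell cycle genes ran from -0.718 (SIM) to 0.925 (AT4G39630) with AUR1, from -0.712 (SIM) to 0.899 (AT4G39630) with AUR2, and from -0.806 (CDC27a) to 0.905 (HBT) with MCM7.

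**Figure D5:**
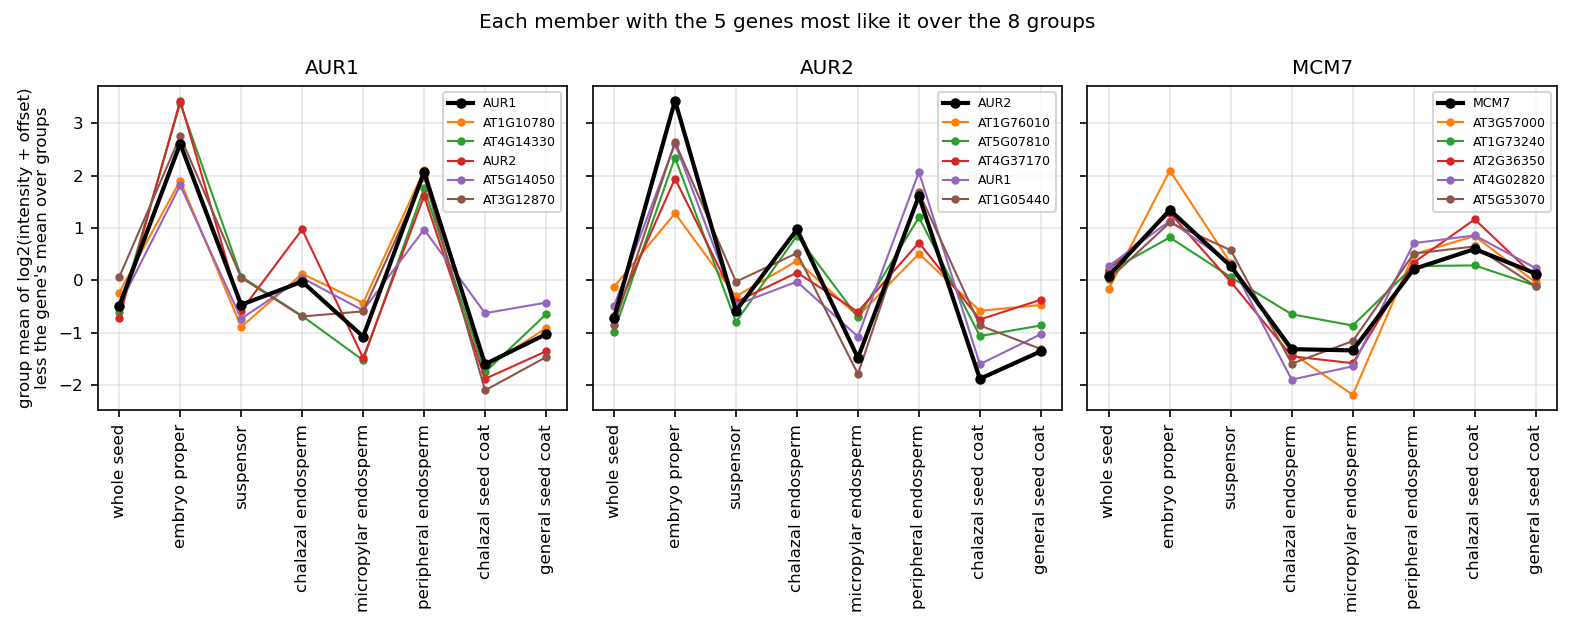
Mean log2 level of each member (thick line) and of its 5 most alike genes (thin lines) over the 8 groups, minus each gene's mean over the groups. Profiles like AUR1 and AUR2 peak in embryo proper and peripheral endosperm, and those like MCM7 are lowest in chalazal or micropylar endosperm.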

How the data were processed

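Whole seeds and 7 compartments of globular-stage Ws-0 seeds, all captured with a laser, were measured on 17 ATH1 arrays. Samples were grouped by their descriptions, which name the compartment. The authors deposited linear intensities, with a value for each probe set on each array. Per the submitters' processing notes these came from GCOS, and the sources used here do not give its algorithm or detection calls. With the highest and lowest 2 percent left out, the deposited intensities averaged 500.042 to 500.072 on every array, so no further scaling was applied. Amplification from small amounts of RNA can favour 3' ends, an effect that was not tested for these probe sets.

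The 64 controls among 22810 probe sets were set aside. A mean for each group was fitted with limma (3.58.1, R 4.3.3) to log2(intensity + 31), where 31 is the median of the array medians divided by 4. The fit used all 17 arrays, had 9 residual degrees of freedom and moderated the variance along the intensity. Tests were two-sided, and the adjustment ran over 22746 probe sets within each comparison. The code was checked on simulated data. Of these probe sets 13513 name 1 gene (13436 matched to TAIR10.1), 503 name several and 8730 are unnamed here. Between 44.5 and 66.0% of probe sets were above the limit. Folds are ratios of geometric means. Where the lower group had arrays at or under the limit, each was set to its limit or its value, whichever was higher, and the fold is written as "at least". Pearson's r was 0.864 to 0.939 between arrays of a group and 0.529 to 0.872 between groups.

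The members and lists were chosen with earlier results of these data known, as was the background limit. Named genes were the members, the 5 genes most like each, and listed cell cycle genes called in embryo proper minus suspensor or micropylar minus peripheral endosperm. The alternatives were other offsets, quantile and 75th percentile scaling, a filter on dim probe sets, no trend, array weights, fewer arrays in the fit, the replicate number as a block, adjustment over all 28 pairs and leaving out each array. No genome build is given for the array, so genes are placed by locus identifier only.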

Additional observations from a re-analysis of the deposited data

How the results depend on the processing

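The 21 differences of the members were recomputed under other settings, each difference having 15, 16 or 26 settings with the reported one included. Of the 333 recomputed values in all, 312 kept their direction and their side of the threshold, 5 lost the call, 5 gained it and 11 changed sign. AUR1 and AUR2 were called in all 15 settings in embryo proper minus suspensor (2.63 to 3.53 and 3.37 to 4.58) and in micropylar minus peripheral endosperm (-3.51 to -2.56 and -3.70 to -2.19), and AUR2 in all 16 in chalazal minus micropylar endosperm (1.66 to 3.02). MCM7 in micropylar minus peripheral endosperm (-1.55) was called with the filter on dim probe sets (adjusted p = 0.0495) and with adjustment over all 28 pairs (adjusted p = 0.0426), and ran from -2.64 to -0.47 when arrays were left out. MCM7 in chalazal minus peripheral endosperm lost its call with quantile scaling (-1.27, adjusted p = 0.0503) and without the trend (-1.53, adjusted p = 0.0534), and ran from -1.83 to -1.18 in the leave-outs; AUR1 there ran from -2.46 to -1.73. AUR2 in embryo proper minus peripheral endosperm was called with an offset 4 times as large (1.69, adjusted p = 0.00782) and in a fit of the arrays compared (1.82, adjusted p = 0.0259).

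The sign of MCM7 in chalazal minus micropylar endosperm (0.02) turned with the larger offset (-0.02), with the replicate block (-0.06) and when arrays were left out (-1.06 to 1.11, with -0.24 without chalazal replicate 1 and -0.06 without chalazal replicate 3). In whole seed minus the mean of the 7 compartments it turned with 75th percentile scaling (-0.10) and in the leave-outs (-0.09 to 0.29, with -0.05 without micropylar replicate 1). AUR1 in that comparison ran from -1.20 to 0.08, and in chalazal minus general seed coat AUR1 ran from -1.35 to 0.20 and AUR2 from -1.58 to 0.53. MCM7 was called in 5 pairs with quantile scaling and in 5 without the trend, against 8 as reported, and in 6 to 13 in the leave-outs.

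Of the cell cycle list, 2 genes rose in chalazal minus peripheral endosperm with no offset or 75th percentile scaling (1 to 2 in the leave-outs, with 1 to 2 that fell). In chalazal minus general seed coat 1 fell with quantile scaling, array weights or the arrays compared. In embryo proper minus peripheral endosperm 1 rose with no offset, 5 with the larger offset, 4 with the arrays compared and 0 to 2 in the leave-outs. When arrays were left out, 0 to 1 rose and 1 to 2 fell in micropylar minus peripheral endosperm, 0 to 1 rose in chalazal minus micropylar endosperm, and 0 to 2 fell in whole seed. Scaling to the 75th percentile shifted the median of all probe sets by up to 0.23. Deviations from group means correlated little between arrays of the same replicate number (56 pairs, r from -0.0933 to 0.0920). In groups of 2 arrays these deviations mirror each other, so many of the pairs repeat 1 value and are not independent. The replicate block changed no call among the 21 differences, and among the other pairs it ended the call of AUR2 in whole seed minus chalazal endosperm. The causes of these changes were not tested.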
